A study of Schizosaccharomyces pombe with 8 samples.

Results

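The nuclear RNA polymerases of fission yeast are built from the products of a small set of genes, and 29 of the 4940 genes measured carried a symbol of the form rpa, rpb or rpc followed by a number. Symbols were taken from a RefSeq table through the systematic name of each gene. By general knowledge of the enzymes, 5 of the 29 encode subunits of polymerase I alone, 7 of polymerase II alone and 10 of polymerase III alone, 2 are shared by polymerases I and III, and 5 are shared by all 3. The symbols nuc1, for the largest subunit of polymerase I, and ker1, for the partner of rpa43, do not follow that pattern. Both genes are described beside the others and left out of every count of the 29.

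In all, 4 strains of Schizosaccharomyces pombe were compared, all of mating type h+ with leu1-32 and ura4-D18. They were YMP37, with pka1 disrupted by ura4; YMP41, with cgs1 disrupted by ura4; OG1, with ppt1 disrupted by kanMX6; and PR110, which carries none of these disruptions. RNA came from 50 mL cultures in YES medium at 30 °C, taken after 8 h in logarithmic growth, with 2 separate cultures per strain and 1 Cy3 array per culture. Protein kinase A, activated by cAMP, has its catalytic subunit from pka1 and its inhibitory regulatory subunit from cgs1, and ppt1 here encodes the polyprenyltransferase of coenzyme Q synthesis.

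Polymerase I transcribes the precursor of the large ribosomal RNAs, polymerase II transcribes messenger RNAs and many noncoding RNAs, and polymerase III transcribes transfer RNAs and other short RNAs. Each enzyme has a catalytic core of its largest and second largest subunits, an assembly platform, small shared subunits and a stalk that emerging RNA passes. Polymerases I and III carry further subunits related to the general factors that polymerase II recruits separately. In budding yeast, the making of ribosomes and transfer RNAs follows nutrient signals, among them those passed on by protein kinase A.

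Signals of the 29 genes lay between 4812 and 62569 intensity units, and every gene was read by 14 probes, while the random-sequence control read from 821 to 1268. All replicate 1 arrays lay on slide 1 and all replicate 2 arrays on slide 2, and the array medians were 21210.2 to 22148 on slide 1 and 24677 to 25548 on slide 2. The labels held for cgs1, at 1404 and 1360.4 on the Δcgs1 arrays, against 20232 and 28238 on the wild-type arrays, and for ppt1, at 2497 and 1910.0 on the Δppt1 arrays, against 32691 and 41517 on the wild-type arrays. The signal of pka1 went against its label: it read 38387 and 46832 on the arrays labelled Δpka1 and 28743 and 34715 on the wild-type arrays. The place of its probes relative to the disruption is not known here. Both arrays labelled Δpka1 carried a ura4 signal, at 32716 and 37383, against 1362 and 1627 in wild type, and the presence of ura4 cannot be told apart from either disruption that it marks. For the h+ label, the P-cell gene map2 read 20398 and 22915 on the arrays labelled Δpka1 and 4659 and 4402 on the Δcgs1 arrays. It read 3571 and 2552 on the Δppt1 arrays, and 4116 and 5046 on the wild-type arrays. The P-cell gene map3 read 20927 and 26247 on the arrays labelled Δpka1 and 11071 to 14619 on the others. Over all 8 arrays, the M-factor gene mfm1 read 2916 to 4698 and the M-factor gene mfm2 read 1224 to 1942. The M-cell genes mam1 and mam2 read 9217 to 13638. Fold changes are log2 differences between strain means with their standard error (SE), from limma fitted to all 8 arrays. A gene was called where its Benjamini-Hochberg adjusted p over 4940 genes lay below 0.05. Because all strains shared both slides, the same fit was also made with slide as a block, and its counts of calls are given beside those without it.

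**Figure D1:**
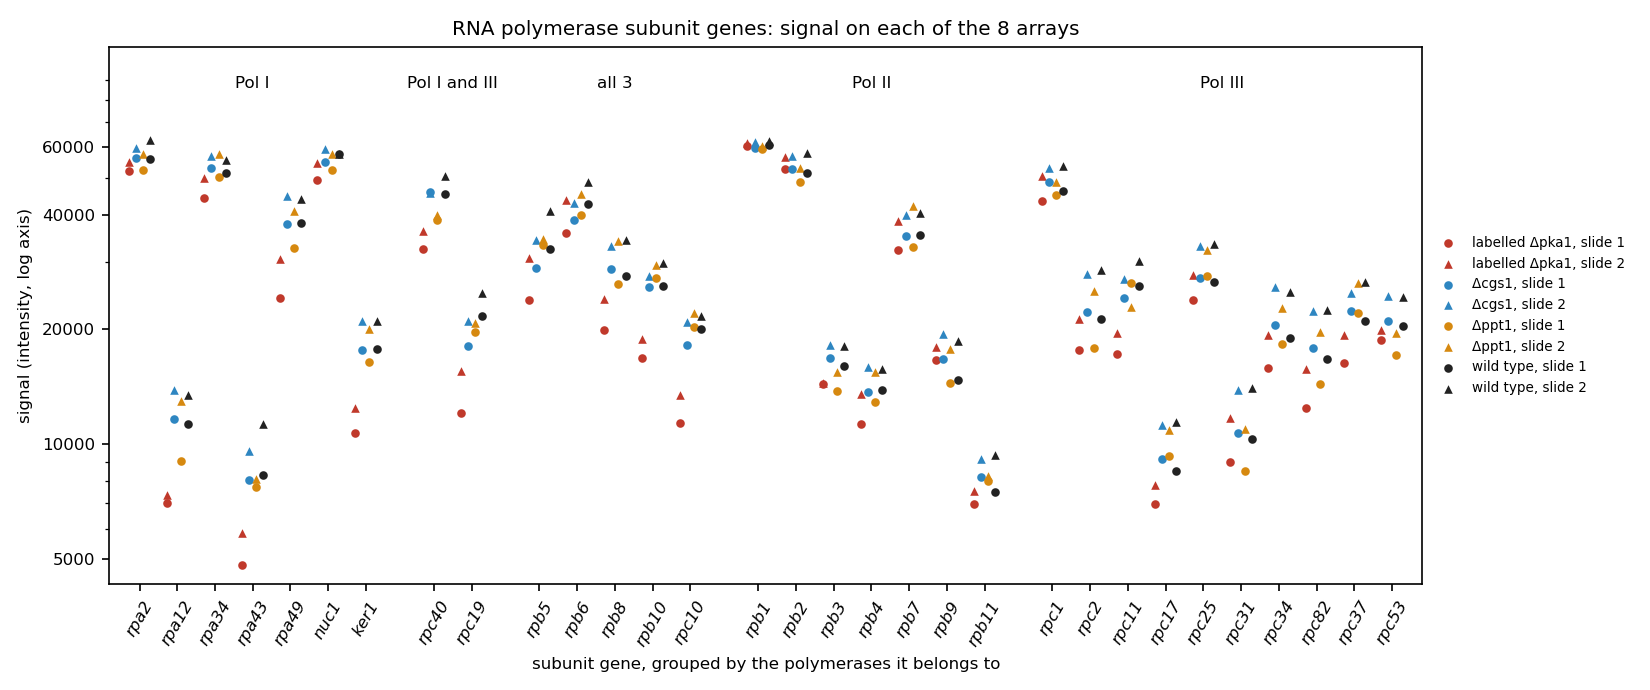
Signal (intensity, log axis) of the 29 subunit genes and of nuc1 and ker1 on each of the 8 arrays, grouped by the polymerases they belong to; colours are strains, circles slide 1 and triangles slide 2. Signals span 4812 to 62569, and both arrays labelled Δpka1 lie below the arrays of all other strains for rpa12, rpa34, rpa43, rpa49, ker1, rpc40, rpc19, rpb8, rpb10, rpc10, rpc11, rpc17 and rpc37. Of all genes, 26.2% had both arrays labelled Δpka1 below both wild-type arrays, and the share below all other strains was not counted.

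Several polymerase subunit genes fell in the arrays labelled Δpka1 relative to wild type, and those called belong to polymerase I, to polymerase III or to more than 1 enzyme. The call was met by 6 of the 29 genes, all lower: rpa43, rpc40, rpc19, rpb10, rpc10 and rpc11. Of all genes, 4.13% were called lower in this comparison. With slide as a block, 23 of the 29 were called lower and 0 higher, where 24% of all genes were called lower and 14.7% higher. The log2 fold change was below 0 on both slides for 27 of the 29, and for 2497 of all 4940 genes. Both arrays labelled Δpka1 lay below both wild-type arrays for 18 of the 29, beside 26.2% of all genes. The median fold change was -0.32 over the 29, against -0.04 over all genes. By class it was -0.59 for polymerase I, -0.62 for the subunits of polymerases I and III, -0.49 for those of all 3, -0.33 for polymerase III and -0.10 for polymerase II. RNA was taken from whole cultures, so less transcript per cell and fewer cells expressing a gene cannot be told apart. The count without the block depended on single arrays: it was 0 without replicate 1 labelled Δpka1 or without replicate 2 of wild type, 2 without replicate 2 labelled Δpka1, 3 without any 1 array of Δcgs1 or Δppt1, and 6 without replicate 1 of wild type. With the block kept, leaving out 1 array gave between 13 and 23 genes, with 13 without replicate 2 of wild type, 14 without replicate 2 labelled Δpka1 and 15 without replicate 1 labelled Δpka1. The median of the 29 was -0.15 without replicate 2 of wild type, -0.21 without replicate 1 labelled Δpka1, and -0.51 without replicate 1 of wild type. The polymerase III median of -0.33 was -0.19 without replicate 1 labelled Δpka1, -0.13 without replicate 2 of wild type and -0.54 without replicate 1 of wild type. The polymerase II median was 0.00 without replicate 1 labelled Δpka1 or without replicate 2 of wild type, where the polymerase I median was -0.42 and -0.49, and it was -0.23 without replicate 2 labelled Δpka1 and -0.20 without replicate 1 of wild type.

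**Figure D2:**
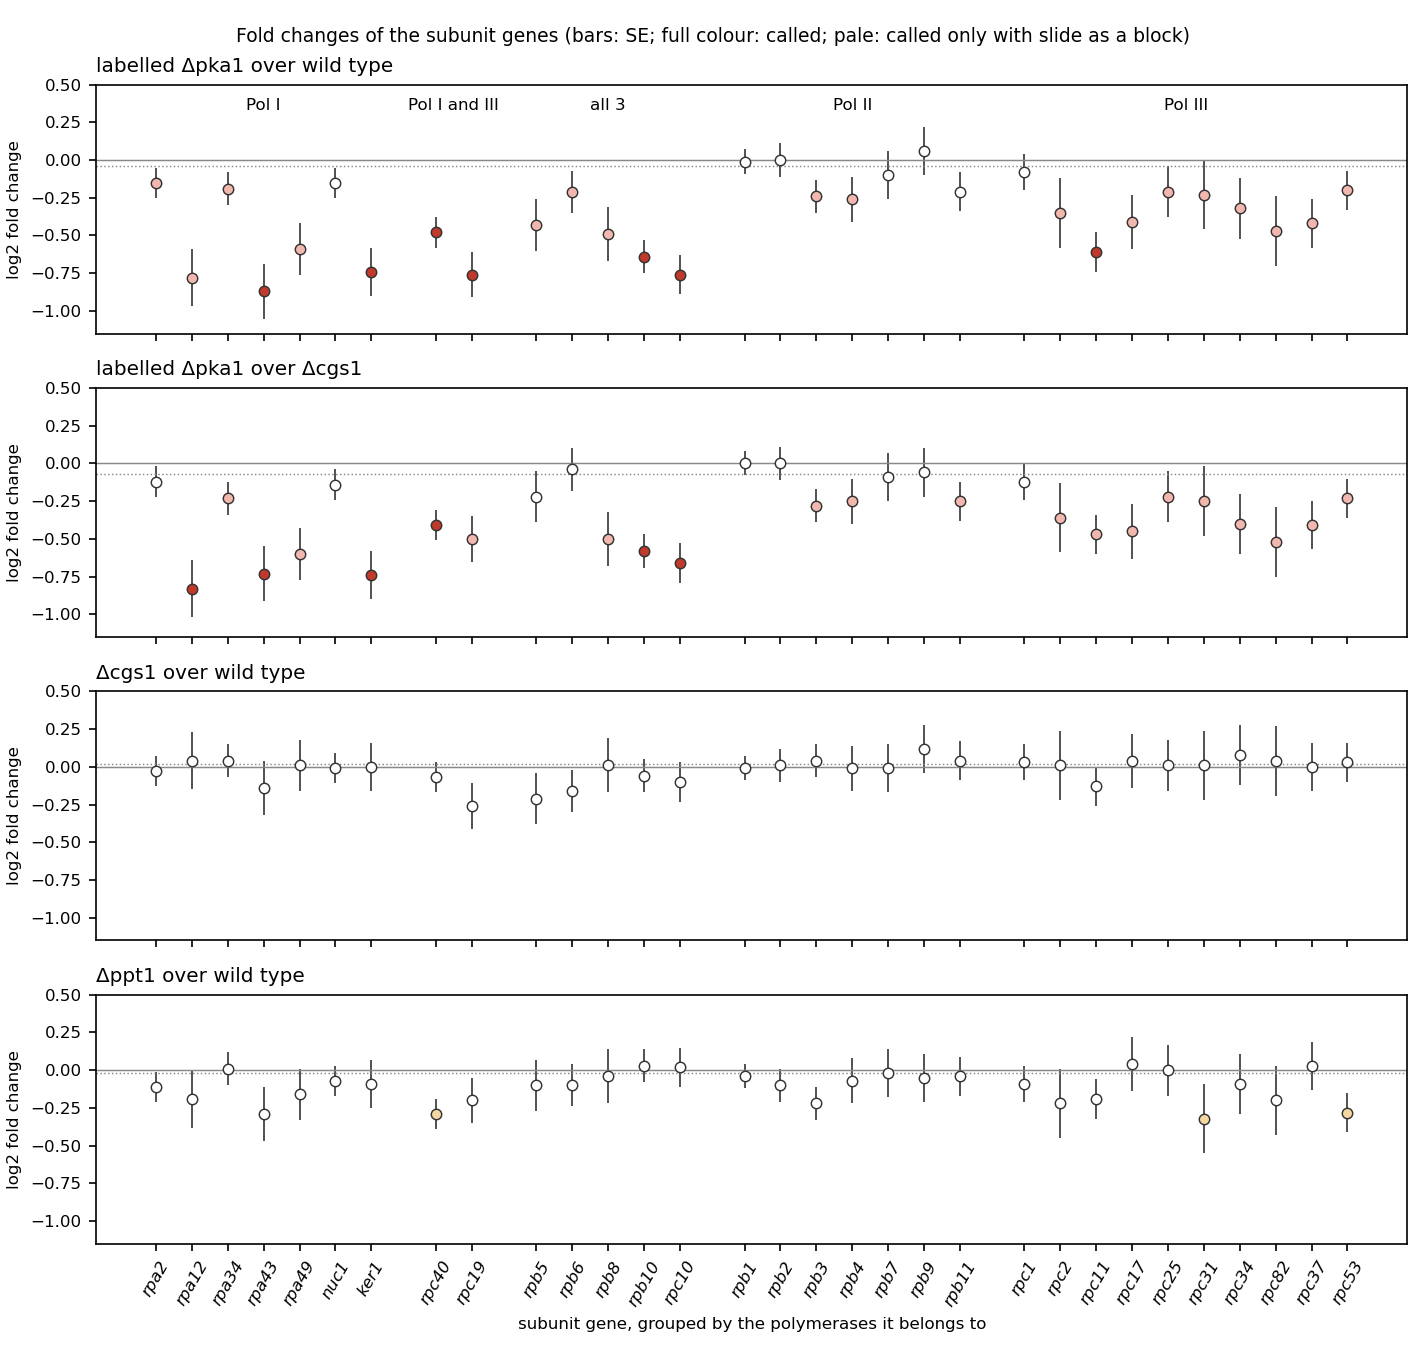
Log2 fold change with its SE of each subunit gene in the 4 comparisons, from 2 arrays per strain. Full colour marks called genes, pale colour genes called only with slide as a block, open circles genes not called, and the dotted line the median of all genes. In the top panel the 7 polymerase II genes lie between -0.26 and 0.06, while the polymerase I genes reach -0.87.

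Among the subunits of polymerase I, rpa43 had the lowest fold change of the 29. The gene encodes the stalk subunit that, in budding yeast, contacts the initiation factor Rrn3. It read 4812 and 5846 on the arrays labelled Δpka1, 8041 and 9585 on the Δcgs1 arrays, 7741 and 8080.3 on the Δppt1 arrays, and 8306 and 11263 on the wild-type arrays. Both arrays labelled Δpka1 were below every other array, with a log2 fold change against wild type of -0.87 (SE 0.18, adjusted p = 0.0324), or 0.548 of the wild-type level. Its stalk partner ker1 read 10720.4 and 12428 on the arrays labelled Δpka1, 17654 and 21077 on the Δcgs1 arrays, 16453 and 19980.2 on the Δppt1 arrays, and 17723 and 20995 on the wild-type arrays. It was also called lower, with a log2 fold change of -0.74 (SE 0.16, adjusted p = 0.0363), a call kept in 3 of 8 fits with 1 array left out and lost with the control subtracted or with the compared strains alone. The small zinc-binding subunit rpa12, which in budding yeast acts in RNA cleavage by the enzyme, read 6994 and 7358 on the arrays labelled Δpka1, 11669 and 13856 on the Δcgs1 arrays, 9046 and 12978 on the Δppt1 arrays, and 11288 and 13480.4 on the wild-type arrays. Its fold change of -0.78 (SE 0.19, adjusted p = 0.0542) missed the call and met it with the block (adjusted p = 0.00429). For all 3 genes, no array of another strain overlapped the pair labelled Δpka1.

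The subunits rpa49 and rpa34 form a dimer that can leave polymerase I and is related to the polymerase II factor TFIIF. The rpa49 signal was 24093 and 30496 on the arrays labelled Δpka1, against 37985 and 43843 on the wild-type arrays, a log2 fold change of -0.59 (SE 0.17, adjusted p = 0.0935; 0.000988 with the block). For rpa34 the signal was 44168 and 49748 on the arrays labelled Δpka1, against 51449 and 55684 on the wild-type arrays, a change of -0.19 (SE 0.11, adjusted p = 0.412; 0.0215 with the block). Both genes of the dimer were thus called only with the block. The second largest subunit, rpa2, read 51892 and 55052 on the arrays labelled Δpka1, against 55953 and 62569 on the wild-type arrays, and its fold change was -0.15 (SE 0.10, adjusted p = 0.503; 0.0394 with the block). The largest subunit, nuc1, read 49236 and 54658 on the arrays labelled Δpka1, 54896 and 59582 on the Δcgs1 arrays, 52430.1 and 57784 on the Δppt1 arrays, and 57695 and 57639 on the wild-type arrays. Its fold change against wild type, -0.15 (SE 0.10, adjusted p = 0.472), was called in neither fit (adjusted p = 0.0691 with the block). The 2 core subunits and rpa34 were thus the polymerase I genes with the smallest differences, and they also had the highest signals of that class.

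Polymerases I and III share an assembly platform of rpc40 and rpc19, and both genes were called lower. The rpc40 signal was 32498 and 36215 on the arrays labelled Δpka1, 45826 and 45435 on the Δcgs1 arrays, 38589.5 and 39793 on the Δppt1 arrays, and 45243 and 50400.5 on the wild-type arrays. Its log2 fold change against wild type was -0.48 (SE 0.10, adjusted p = 0.0338), and it was -0.48 on slide 1 and -0.48 on slide 2. The rpc19 signal was 12101 and 15588 on the arrays labelled Δpka1, 18033 and 20995 on the Δcgs1 arrays, 19716 and 20752 on the Δppt1 arrays, and 21712 and 24839.7 on the wild-type arrays. Here the fold change against wild type was -0.76 (SE 0.15, adjusted p = 0.0296), or 0.591 of the wild-type level. For both genes, the arrays labelled Δpka1 were below all others, and the wild-type arrays included the highest.

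Of the 5 subunits present in all 3 enzymes, rpb10 and rpc10 were called lower, and rpb5, rpb6 and rpb8 were called lower only with the block. Both called genes encode very small zinc-binding subunits, and rpc10 is also named rpb12. The rpc10 signal was 11354 and 13481 on the arrays labelled Δpka1, 18185 and 20937 on the Δcgs1 arrays, 20244 and 22122 on the Δppt1 arrays, and 20098 and 21728 on the wild-type arrays. Its fold change of -0.76 (SE 0.13, adjusted p = 0.0148) had the lowest adjusted p of the 29 genes. The rpb10 signal was 16851 and 18911 on the arrays labelled Δpka1, 25858 and 27534 on the Δcgs1 arrays, 27294 and 29552 on the Δppt1 arrays, and 25904 and 29847 on the wild-type arrays, with a fold change against wild type of -0.64 (SE 0.11, adjusted p = 0.019). Both genes separated the arrays labelled Δpka1 from every other array, whereas Δcgs1, Δppt1 and wild type overlapped.

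The other shared subunits had smaller fold changes. The rpb8 signal was 19876 and 24090.2 on the arrays labelled Δpka1, 28741 and 33092 on the Δcgs1 arrays, 26217 and 34069 on the Δppt1 arrays, and 27542 and 34257 on the wild-type arrays, and its fold change against wild type was -0.49 (SE 0.18, adjusted p = 0.167; 0.00224 with the block). The rpb5 gene, which encodes the jaw subunit that grips incoming DNA, read 23843 and 30704 on the arrays labelled Δpka1, 28877 and 34236 on the Δcgs1 arrays, 33371 and 34478 on the Δppt1 arrays, and 32402 and 40757 on the wild-type arrays. Its fold change was -0.43 (SE 0.17, adjusted p = 0.198; 0.0144 with the block), and Δcgs1 and Δppt1 each had an array between the wild-type signals. The rpb6 gene, which encodes a subunit that holds the clamp, read 35697 and 43735 on the arrays labelled Δpka1, 38639 and 42934 on the Δcgs1 arrays, 39922 and 45351 on the Δppt1 arrays, and 42710.5 and 48783 on the wild-type arrays. There the arrays overlapped, with a fold change of -0.21 (SE 0.14, adjusted p = 0.479; 0.0228 with the block).

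No subunit of polymerase II alone was called in the arrays labelled Δpka1 against wild type, where 4.13% of all genes were called lower. An unadjusted p below 0.05 (limma) was met by 0 of the 7, and by 3 with the block. Of all 4940 genes, 1129 met it, and 2384 with the block. The largest subunit, rpb1, which carries the C-terminal repeats that are phosphorylated during transcription, read 60401 and 61684 on the arrays labelled Δpka1, 59908 and 61923 on the Δcgs1 arrays, 59349 and 60490.5 on the Δppt1 arrays, and 60875 and 62205 on the wild-type arrays. The arrays labelled Δpka1 and the wild-type arrays overlapped, with a fold change of -0.01 (SE 0.08, adjusted p = 0.975). The second largest subunit, rpb2, read 52773 and 56659 on the arrays labelled Δpka1, 52770.0 and 56872 on the Δcgs1 arrays, 48619 and 53048 on the Δppt1 arrays, and 51426 and 57924 on the wild-type arrays, a fold change of 0.00 (SE 0.11, adjusted p = 0.998) between the arrays labelled Δpka1 and wild type. These genes are among the brightest on the arrays, and rpb1 is the 1 member of the 29 with a mean within 10% of the highest signal measured.

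The polymerase II platform subunits are rpb3 and rpb11. Signals of rpb3 were 14400.4 and 14432 on the arrays labelled Δpka1, 16816 and 18173 on the Δcgs1 arrays, 13758 and 15418 on the Δppt1 arrays, and 15985 and 18094 on the wild-type arrays, with a fold change against wild type of -0.24 (SE 0.11, adjusted p = 0.25; 0.0232 with the block). For rpb11 they were 6977 and 7546 on the arrays labelled Δpka1, against 7503 and 9362 on the wild-type arrays, which overlapped, with a fold change of -0.21 (SE 0.13, adjusted p = 0.431). The stalk is formed by rpb4 and rpb7. The rpb4 signal was 11267 and 13555 on the arrays labelled Δpka1, against 13888 and 15771 on the wild-type arrays, a fold change of -0.26 (SE 0.15, adjusted p = 0.39; 0.00678 with the block). The rpb7 signal was 32275 and 38373 on the arrays labelled Δpka1, against 35264 and 40427 on the wild-type arrays, a change of -0.10 (SE 0.16, adjusted p = 0.82). Thus rpb3 and rpb4 were the 2 polymerase II genes called lower with the block. The zinc-binding subunit rpb9, which in budding yeast acts in transcript fidelity, read 16583 and 17976 on the arrays labelled Δpka1, 16688 and 19436 on the Δcgs1 arrays, 14484 and 17770.0 on the Δppt1 arrays, and 14736 and 18692 on the wild-type arrays. It had the highest fold change of the 29, 0.06 (SE 0.16, adjusted p = 0.922), and its arrays overlapped.

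Of the 10 subunits of polymerase III alone, rpc11 was called lower, and 9 were called lower with the block, all but rpc1. The product of rpc11 gives the enzyme its RNA cleavage activity and is needed to end transcripts and start again. It read 17252 and 19593 on the arrays labelled Δpka1, 24100.2 and 27035 on the Δcgs1 arrays, 26418 and 22829.9 on the Δppt1 arrays, and 25922 and 30295 on the wild-type arrays. The fold change against wild type was -0.61 (SE 0.13, adjusted p = 0.0402), and it was -0.59 on slide 1 and -0.63 on slide 2. The Δppt1 arrays of rpc11 were the only ones of that gene that read lower on slide 2 than on slide 1.

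Initiation by polymerase III needs a trimer of rpc82, rpc34 and rpc31, which docks the enzyme on its initiation factor. The rpc82 signal was 12409 and 15724 on the arrays labelled Δpka1, against 16719 and 22534 on the wild-type arrays, a log2 fold change of -0.47 (SE 0.23, adjusted p = 0.288; 0.002 with the block). The rpc34 signal was 15873 and 19343 on the arrays labelled Δpka1, against 19005 and 25001 on the wild-type arrays, and its change was -0.32 (SE 0.20, adjusted p = 0.444; 0.00446 with the block). The rpc31 signal was 8954 and 11715 on the arrays labelled Δpka1, against 10310.0 and 14074 on the wild-type arrays, and its change was -0.23 (SE 0.23, adjusted p = 0.667; 0.00952 with the block). All 3 trimer genes read lower within each slide, while the signals of rpc34 and rpc31 overlapped across slides. A dimer of rpc53 and rpc37 acts with rpc11 in termination. The rpc37 signal was 16289 and 19281 on the arrays labelled Δpka1, against 20978 and 26666 on the wild-type arrays, a fold change of -0.42 (SE 0.16, adjusted p = 0.186; 0.00404 with the block). For rpc53 it was 18744 and 19884 on the arrays labelled Δpka1, against 20404 and 24254 on the wild-type arrays, a fold change of -0.20 (SE 0.13, adjusted p = 0.466; 0.0315 with the block).

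The polymerase III stalk consists of rpc25 and rpc17. The rpc17 signal was 6978 and 7832 on the arrays labelled Δpka1, against 8512 and 11403 on the wild-type arrays, a fold change of -0.41 (SE 0.18, adjusted p = 0.232; 0.00793 with the block). The rpc25 signal was 23943 and 27785 on the arrays labelled Δpka1, against 26561 and 33421 on the wild-type arrays, and its fold change was -0.21 (SE 0.17, adjusted p = 0.565; 0.0185 with the block). In the core, the second largest subunit, rpc2, read 17644 and 21347 on the arrays labelled Δpka1, against 21308 and 28599 on the wild-type arrays, a fold change of -0.35 (SE 0.23, adjusted p = 0.466; 0.0103 with the block). The largest subunit, rpc1, read 43494 and 50445 on the arrays labelled Δpka1, 48643 and 53051 on the Δcgs1 arrays, 44938 and 48552 on the Δppt1 arrays, and 46036 and 53549.7 on the wild-type arrays. Its arrays overlapped, with a fold change of -0.08 (SE 0.12, adjusted p = 0.802) and an adjusted p of 0.213 with the block.

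Several subunits hold the same place in each enzyme, and their fold changes in the arrays labelled Δpka1 can be set side by side; differences between genes were not tested. At the place of the zinc-binding subunits rpa12, rpb9 and rpc11, the log2 fold changes were -0.78, 0.06 and -0.61. These genes belong to polymerases I, II and III in that order. The fold change of rpa12 minus that of rpb9 was -0.86 on slide 1 and -0.82 on slide 2. For rpc11 minus rpb9 it was -0.76 on slide 1 and -0.57 on slide 2. In the stalk, the values were -0.87 for rpa43, -0.10 for rpb7 and -0.21 for rpc25, and for their partners -0.74 for ker1, -0.26 for rpb4 and -0.41 for rpc17. On slides 1 and 2, rpa43 minus rpb7 was -0.66 and -0.87, and ker1 minus rpb4 was -0.42 and -0.54. For polymerase III the differences were smaller on slide 1: rpc25 minus rpb7 was -0.02 and -0.19, and rpc17 minus rpb4 was 0.02 and -0.32. In the platform, rpc40 had -0.48 where rpb3 had -0.24, and rpc19 had -0.76 where rpb11 had -0.21. On slides 1 and 2, rpc40 minus rpb3 was -0.33 and -0.15, and rpc19 minus rpb11 was -0.74 and -0.36. The core subunits were closer together: -0.15 for nuc1, -0.01 for rpb1 and -0.08 for rpc1, and then -0.15 for rpa2, 0.00 for rpb2 and -0.35 for rpc2.

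**Figure D3:**
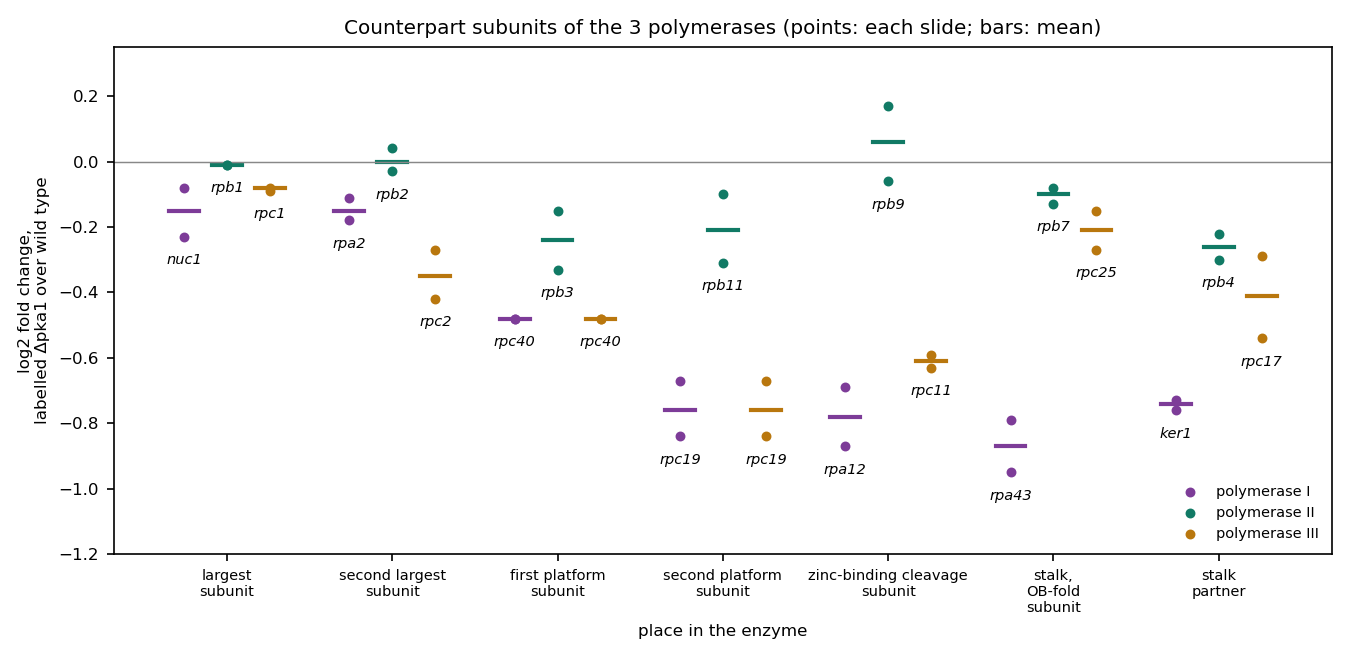
Log2 fold change, arrays labelled Δpka1 over wild type, of subunits that hold the same place in polymerases I, II and III; points are the 2 slides and bars their mean. The polymerase II subunits lie between -0.33 and 0.17 on single slides, and rpc40 and rpc19 are drawn under both polymerases that share them. On the axis, the place of rpa12, rpb9 and rpc11 is named for cleavage, a role given here for rpa12 and rpc11 only.

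The size of a fold change on these arrays depended on how bright a gene was. Over all genes, the median absolute log2 fold change between the arrays labelled Δpka1 and wild type was 0.28 in the dimmest decile of genes by mean signal, 0.107 in decile 9 and 0.0267 in decile 10, the brightest. The members rpa2 and rpb1 were in decile 10, and rpa34, rpb2, rpc1 and also nuc1 in decile 9. Every core subunit but rpc2 therefore lay where fold changes over all genes were small, and the part of brightness in their values was not tested. The genes of polymerase II were not all bright: rpb11 and rpb4 lay in deciles 2 and 3, and rpb3 and rpb9 in decile 4. In decile 4, rpb3 and rpb9 had fold changes of -0.24 and 0.06, rpc82 had -0.47, and rpc19, rpc10 and ker1 had -0.76, -0.76 and -0.74.

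**Figure D4:**
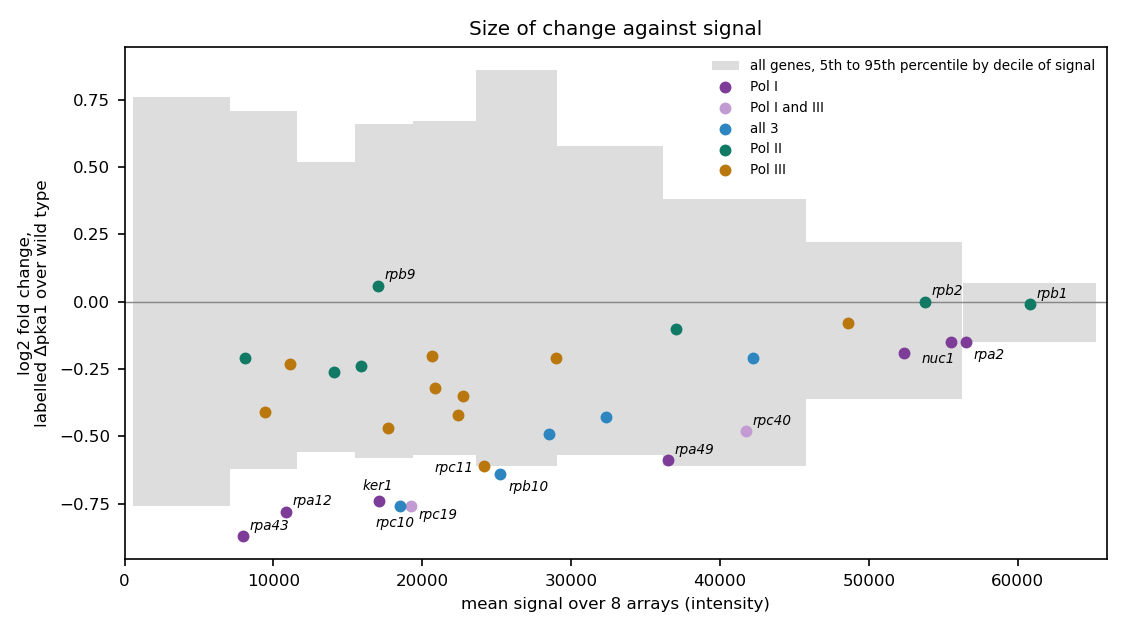
Log2 fold change, arrays labelled Δpka1 over wild type, against mean signal over the 8 arrays for the 29 genes, nuc1 and ker1; the grey steps span the 5th to the 95th percentile of all genes in each decile of signal. The spread of all genes narrows to -0.15 to 0.07 in the brightest decile, where rpa2 and rpb1 lie, and rpa43, rpa12, ker1, rpc10, rpc19 and rpb10 lie below the grey band.

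Genes for the factors that work with each polymerase were taken as 4 lists, whose counts in the arrays labelled Δpka1 against wild type stand beside the 4.13% of all genes called lower, and beside 24% called lower and 14.7% higher with the block. Of 8 polymerase I factors, 1 was called lower in the arrays labelled Δpka1 against wild type, and 2 were with the block; the median was -0.12. The called gene was rrn11, a subunit of the core factor that recruits polymerase I to ribosomal DNA. It read 4748 and 4479 on the arrays labelled Δpka1, 8575 and 7747 on the Δcgs1 arrays, 6617 and 6663 on the Δppt1 arrays, and 7186 and 8336 on the wild-type arrays. It lay in the dimmest decile of genes by mean signal, where the 5th percentile of all fold changes was -0.76, and was not fitted when dim genes were left out. Its fold change was -0.75 (SE 0.11, adjusted p = 0.00818), and the call was lost without replicate 2 labelled Δpka1 (adjusted p = 0.0662). The gene added by the block was rrn5, a subunit of the upstream factor, at -0.34 (SE 0.14, adjusted p = 0.208; 0.00533 with the block). The initiation factor rrn3, which carries polymerase I to the promoter, read 22977 and 31405 on the arrays labelled Δpka1, against 32506 and 37162 on the wild-type arrays, a fold change of -0.37 (SE 0.18, adjusted p = 0.295). Another gene of the core factor, rrn7, read 12999.6 and 14875 on the arrays labelled Δpka1, against 13353 and 15564 on the wild-type arrays, a fold change of -0.05 (SE 0.13, adjusted p = 0.906).

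For polymerase II, 0 of 19 general initiation factors measured, of 20 listed, were called in the arrays labelled Δpka1 against wild type. Of the 19, 2 had an unadjusted p below 0.05 (limma), where 1129 of all 4940 genes had. The median of the 19 was -0.01. With the block, 3 were called lower (tfb1, tfb2 and tfb5) and 3 higher (tfg2, rad15 and mcs6). Genes of the TFIIH complex went both ways: tfb1, tfb2 and tfb5 were lower, while rad15 had 0.20 and mcs6 had 0.25. The lowest of the 19 was tfb5, which, like rrn11, lay in the dimmest decile of genes by mean signal. It read 3358 and 3151 on the arrays labelled Δpka1, against 3802 and 4947 on the wild-type arrays. Its fold change was -0.41 (SE 0.15, limma adjusted p = 0.148, and 0.042 with the block). The highest was tfg2, a subunit of TFIIF, at 32117 and 37154 on the arrays labelled Δpka1, against 23732 and 28176 on the wild-type arrays, a fold change of 0.42 (SE 0.15, adjusted p = 0.163; 0.0012 with the block). Of 14 elongation and phosphatase factors measured, of 15 listed, 0 were called (limma; 0 with an unadjusted p below 0.05), with a median of -0.07, and the block added 4 lower calls (tfs1, iwr1, leo1 and cdc73). The value furthest from 0 was that of iwr1, which in budding yeast acts in nuclear import of polymerase II, at -0.40 (SE 0.17, adjusted p = 0.231; 0.0247 with the block). Of 9 polymerase III factors, 0 were called (limma; 1 with an unadjusted p below 0.05), with a median of 0.03. With the block, bdp1, a subunit of the initiation factor TFIIIB, was called lower at -0.41 (SE 0.17, adjusted p = 0.217; 0.0161 with the block). The same fit called maf1, the repressor of polymerase III, higher at 0.17 (SE 0.13, adjusted p = 0.557; 0.0318 with the block).

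The arrays labelled Δpka1 were next compared with Δcgs1, the strain in which the kinase lacks its inhibitory subunit; in both, ura4 marks the disruption. Of the 29 genes, 5 were called lower and 0 higher: rpa12, rpa43, rpc40, rpb10 and rpc10. Of all genes, 5.97% were called lower. With slide as a block, 21 were called lower, where 28.8% of all genes were. The median over the 29 was -0.28, against -0.07 over all genes, and by class -0.60 for polymerase I, -0.46 for polymerases I and III, -0.50 for all 3, -0.38 for polymerase III and -0.09 for polymerase II. The polymerase III median was -0.24 without replicate 1 labelled Δpka1 and -0.21 without replicate 2 of Δcgs1. The polymerase II median was 0.00 without either of these arrays, -0.22 without replicate 2 labelled Δpka1, -0.18 without replicate 1 of Δcgs1 and -0.05 after median scaling. This comparison shares its first arrays with the one against wild type. The count of 5 was 0 without replicate 1 labelled Δpka1 or without either array of Δcgs1, 1 without replicate 2 labelled Δpka1 and 3 without either array of Δppt1. With the block kept, it was 10 without either array of Δcgs1 and 13 without replicate 2 labelled Δpka1, and between 17 and 22 without any other array. The median of the 29 was -0.44 without replicate 2 labelled Δpka1.

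From the signals given above, the fold change of the arrays labelled Δpka1 over Δcgs1 was lowest for rpa12, at -0.83 (SE 0.19, adjusted p = 0.0421). For rpa43 it was -0.73 (SE 0.18, adjusted p = 0.0499), and for ker1 -0.74 (SE 0.16, adjusted p = 0.0333), a call kept in 4 of 8 fits with 1 array left out and lost with the control subtracted. The zinc-binding shared subunits had -0.66 (SE 0.13, adjusted p = 0.0234) for rpc10 and -0.58 (SE 0.11, adjusted p = 0.0249) for rpb10. The platform gene rpc40 had -0.41 (SE 0.10, adjusted p = 0.0479), while rpc19 had -0.50 (SE 0.15, adjusted p = 0.0939; 0.00505 with the block). The calls of rpa12, rpa43 and rpc40 were also lost with the control subtracted and with dim genes left out. That of rpc40 was lost with the compared strains alone too, while rpb10 and rpc10 kept theirs in 6 of 6 such settings. With 1 array left out, the fold change was -0.87 to -0.59 for rpa43 and -0.49 to -0.33 for rpc40. For polymerase III, rpc82 had -0.52 (SE 0.23, adjusted p = 0.227; 0.00135 with the block) and rpc11 had -0.47 (SE 0.13, adjusted p = 0.0774; 0.0245 with the block). Highest were rpb1 at 0.00 (SE 0.08, adjusted p = 0.999), rpb2 at 0.00 (SE 0.11, adjusted p = 0.999) and rpb6 at -0.04 (SE 0.14, adjusted p = 0.931), none of them called in either fit. With the block, rpa2, rpb5, rpb6, rpb1, rpb2, rpb7, rpb9 and rpc1 were the genes not called.

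In the factor lists, the arrays labelled Δpka1 against Δcgs1 gave lower calls for 1 of 8 polymerase I factors, 1 of 19 polymerase II general factors, 0 of 14 elongation and phosphatase factors (limma; 2 with an unadjusted p below 0.05) and 0 of 9 polymerase III factors (limma; 1 with an unadjusted p below 0.05), and no higher call, beside the 5.97% of all genes called lower. In this comparison, 1211 of all 4940 genes had an unadjusted p below 0.05. The core factor gene rrn11 fell, with a fold change of -0.82 (SE 0.11, adjusted p = 0.00479). So did tfb5, which read 3358 and 3151 on the arrays labelled Δpka1, against 4910.2 and 4997 on the Δcgs1 arrays, with a fold change of -0.61 (SE 0.15, adjusted p = 0.0469). The tfb5 call was lost without any 1 array labelled Δpka1, of Δcgs1 or of Δppt1. It was also lost with the control subtracted (limma adjusted p = 0.106). Like rrn11, tfb5 lay in the dimmest decile and was not fitted when dim genes were left out. With the block, the lower calls were 3 of 8, 4 of 19, 5 of 14 and 4 of 9 in the same order of lists, beside 28.8% of all genes. The same fit called 1 factor gene higher, beside 12.5% of all genes: tfg2, at 0.34 (SE 0.15, adjusted p = 0.241; 0.00209 with the block).

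In Δcgs1 against wild type, 0 of the 29 genes were called (limma; 0 with an unadjusted p below 0.05), and 0 were with slide as a block, where 2 had an unadjusted p below 0.05. Of all genes, 0.0607% were called lower, and 0.182% with the block. An unadjusted p below 0.05 was met by 115 of all 4940 genes, and by 675 with the block. The median fold change was 0.01 over the 29 and 0.02 over all genes, and the 29 lay between -0.26 and 0.12. With 1 array left out, the median of the 29 took either sign, from -0.14 without replicate 1 of wild type to 0.11 without replicate 2 of wild type. The lowest was rpc19, at -0.26 (SE 0.15, adjusted p = 1; 0.247 with the block), and its Δcgs1 arrays lay below both wild-type arrays. The next were rpb5 at -0.21 (SE 0.17, adjusted p = 1) and rpb6 at -0.16 (SE 0.14, adjusted p = 1). The highest were rpb9 at 0.12 (SE 0.16, adjusted p = 1) and rpc34 at 0.08 (SE 0.20, adjusted p = 1), and then rpb11 at 0.04 (SE 0.13, adjusted p = 1). For rpc34, the signals were 20561 and 25832 on the Δcgs1 arrays, against 19005 and 25001 on the wild-type arrays. Arrays of Δcgs1 and wild type overlapped for 28 of the 29 genes, and for 4320 of all 4940 genes. The 4 factor lists had 0 called genes in this comparison (limma, with or without the block; 0 had an unadjusted p below 0.05 without it), and the largest values were 0.25 for maf1, -0.19 for the upstream factor subunit rrn10, 0.19 for tfb5 and 0.13 for cdc73, which encodes a subunit of the PAF complex.

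In Δppt1 against wild type, 0 of the 29 genes were called (limma), where 0.324% of all genes were called lower. An unadjusted p below 0.05 was met by 1 of the 29 and by 451 of all 4940 genes. With slide as a block, 3 of the 29 were called lower and 0 higher, where 7.35% of all genes were called lower. These were rpc40, rpc31 and rpc53. The rpc40 signal was 38589.5 and 39793 on the Δppt1 arrays, against 45243 and 50400.5 on the wild-type arrays, a fold change of -0.29 (SE 0.10, adjusted p = 0.407; 0.0379 with the block). The rpc53 signal was 17079 and 19599 on the Δppt1 arrays, against 20404 and 24254 on the wild-type arrays, a fold change of -0.28 (SE 0.13, adjusted p = 0.66; 0.032 with the block). The rpc31 signal was 8505 and 10937 on the Δppt1 arrays, against 10310.0 and 14074 on the wild-type arrays, a fold change of -0.32 (SE 0.23, adjusted p = 0.92; 0.0115 with the block). The arrays of rpc40 and rpc53 did not overlap between these strains, and those of rpc31 did. Both Δppt1 arrays lay below both wild-type arrays for 6 of the 29, as for 14.2% of all genes. The median was -0.10 over the 29 and -0.02 over all genes, and over the 29 it was 0.00 without replicate 1 of Δppt1 and 0.01 without replicate 2 of wild type. The count of 3 with the block was 0 without replicate 2 of wild type, without either array of Δcgs1 or without replicate 2 of Δppt1, 1 without replicate 1 of wild type and 2 without any other array.

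Among the genes not called in either fit, rpa43 had the largest difference in Δppt1, at -0.29 (SE 0.18, adjusted p = 0.813; 0.0995 with the block), and the fold change differed between slides, at -0.10 on slide 1 and -0.48 on slide 2. The highest were rpc17 at 0.04 (SE 0.18, adjusted p = 1), rpc37 at 0.03 (SE 0.16, adjusted p = 1) and rpb10 at 0.03 (SE 0.11, adjusted p = 1). The shared subunits rpb10 and rpc10, which were called lower in the arrays labelled Δpka1, had fold changes of 0.03 and 0.02 in Δppt1. Of the largest subunits, rpb1 had -0.04 (SE 0.08, adjusted p = 1), rpc1 had -0.09 (SE 0.12, adjusted p = 1) and nuc1 had -0.07 (SE 0.10, adjusted p = 1). No gene of the 4 factor lists was called in Δppt1 (limma; 1 had an unadjusted p below 0.05). That gene was mcs6, which encodes the kinase of TFIIH, at 48335 and 55030.3 on the Δppt1 arrays, against 37284 and 42103 on the wild-type arrays, and its fold change was 0.38 (SE 0.13, adjusted p = 0.407; 0.0064 with the block). The lowest values in the other lists were -0.33 for rrn3, -0.29 for sfc1, a subunit of the polymerase III factor TFIIIC, and -0.20 for iwr1; prf1, a subunit associated with the PAF complex, had 0.21.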

How the data were processed

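Gene expression was measured on 8 single-colour NimbleGen arrays, 2 per strain, 1 per culture. Per the file headers, the deposited values are 1 intensity per gene and array on a linear scale, with an error score and a number of probes that no test used. The authors' summary of probes and normalization of arrays are not described in the labels or headers. The series' value table equalled the array files (largest difference 0). Systematic names matched a RefSeq table for 4916 of 4940 genes, and 4150 had a symbol. With no genome build named, positions are left out, and no gene, promoter or protein sequences were used here. A planned search of promoter motifs was not run.

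Intensities were taken to log2 and fitted with limma 3.58.1 in R 4.3.3, 1 mean per strain over 8 arrays (4 residual degrees of freedom), with moderated two-sided tests. Benjamini-Hochberg adjustment ran over all 4940 genes, and genes were called at an adjusted p below 0.05. Each disruptant was compared with wild type, and the arrays labelled Δpka1 also with Δcgs1. The random-sequence control was left out. The fit was tested on simulated data. Precision is limited by having 2 arrays per strain. Without the block, the p-values measure the spread between separate cultures and slides. With it, a difference shared by all arrays of a slide is removed from that spread. The median SE was 0.143, and 0.0589 with the block.

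Replicate numbers pair the samples: deviations from strain means correlated between arrays of the same slide for each of the 6 strain pairs (r from 0.351 to 0.690 across genes). The slide comes from the array titles. On slide 2, titles and deposited table names of the disruptants give different array positions, and the labels' strain was used. The fit with slide as a replicate block left 3 residual degrees of freedom. Other alternatives were quantile normalization, median scaling, subtraction of the control signal (floor 100), leaving out the dimmest decile of genes, fitting the compared strains alone, and leaving out each array. Leaving out arrays within the blocked fit was added after the data were seen.

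Named were all genes of the rule, nuc1 and ker1, called factor genes, the largest changes of lists with no call, and pka1, cgs1, ppt1 and ura4. A few further factor genes (rrn3, rrn5, rrn7, and those called only with the block) were named after their values were seen. The members and lists were chosen with earlier results of these data known, the lists from general knowledge.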

Additional observations from a re-analysis of the deposited data

How the results depend on the processing

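No subunit or factor gene called without the block changed sign in the alternatives checked. Signs were not checked over all called genes, or with 1 array left out of the blocked fit. For the arrays labelled Δpka1 against wild type, 6 of the 29 subunit genes were called, all lower; the count was 23 with slide as a replicate block, 21 after quantile normalization, 16 after median scaling, 2 with the control subtracted, 2 with the compared strains alone and 6 without dim genes. It ranged from 0 to 6 with 1 array left out, and from 13 to 23 with 1 array left out of the blocked fit. Against Δcgs1 the count of 5 was 21 with the block, 17 after quantile normalization, 14 after median scaling, 2 with the control subtracted, 2 without dim genes and 4 with the compared strains alone, with 1 array left out 0 to 5, and 10 to 22 in the blocked fit. For Δppt1 against wild type the count of 0 was 3 with the block, and lower than 3 with any 1 array left out of the blocked fit. After quantile normalization it was 1 (rpc53, limma adjusted p = 0.0209). For Δcgs1 against wild type the count was 0 under all alternatives run. Of all genes, 418 were called in the arrays labelled Δpka1 against wild type (1908 with the block, 1809 after quantile normalization, 1439 after median scaling, 236 with the compared strains alone, 181 to 387 with 1 array left out, 1051 to 2095 in the blocked fit). Against Δcgs1, 511 were called (2041, 1844 and 1435 in the same first 3 settings, 201 to 592 with 1 array left out, 883 to 2248 in the blocked fit). In Δppt1 against wild type, 50 were called, 34 higher and 16 lower; with the block there were 636 (273 higher, 363 lower), after quantile normalization 698 (322 higher, 376 lower), after median scaling 338 (161 higher, 177 lower), with the compared strains alone 24, and with 1 array left out 13 to 33, or 186 to 402 in the blocked fit. In Δcgs1 against wild type, 7 were called, 4 higher and 3 lower; with the block there were 41 (32 higher, 9 lower), after quantile normalization 69, after median scaling 39 (28 higher, 11 lower), with the compared strains alone 3, and with 1 array left out 2 to 6, or 1 to 27 in the blocked fit. The cause of these differences was not tested. By its construction, the block removes any difference, common to all strains, between replicate 1 on slide 1 and replicate 2 on slide 2. Slide and replicate set cannot be told apart here. The rpc10 call in the arrays labelled Δpka1 against wild type was kept in 6 of 6 other settings and in 6 of 8 fits with 1 array left out; rpa43, rpc40 and rpc11 kept theirs in 1 of those 8. The median fold change of the 29 in that comparison stayed between -0.32 and -0.30 in all settings that kept all arrays, and between -0.51 and -0.15 with 1 array left out.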
